A study of Mus musculus with 5 samples.

Results

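A set of 69 genes had a higher level in each of the 3 libraries treated with PAZA than in both libraries without it. PAZA is a polymer that carries azacytidine, an inhibitor of DNA methyltransferases. The set was chosen from the levels themselves. A gene was kept when the lowest of PAZA, BMN/PAZA low dose and BMN/PAZA high dose was at least 1.5 times the higher of Control and BMN, and was at least 2. The rule kept 69 of 13979 gene symbols, 0.494%. Among the 9363 symbols with a level of at least 2 in all 3 PAZA-containing libraries, the share was 0.737%. The same rule turned around, for genes lower in every PAZA-containing library, kept 325 symbols, 2.32%. This split depended on how the columns were scaled. With columns scaled by median ratios in place of 1 sum, the rule kept 183 symbols (1.31%), all 69 among them, and the rule turned around kept 97 (0.694%). Over the 9103 genes with a level of at least 2 in every library, that scaling moved the median log2 ratio of PAZA over Control from -0.11 to -0.014, of low dose over BMN from -0.19 to -0.00022 and of high dose over BMN from -0.32 to 0.0087.

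The libraries came from Lewis lung carcinoma (LLC), a mouse lung cancer line that forms tumors in C57BL/6 mice. There were 5 groups with 1 library each. Control carries no further label, BMN had the PARP inhibitor BMN673, PAZA had the polymer alone, and BMN/PAZA low dose and BMN/PAZA high dose had BMN673 loaded in the polymer at a lower and a higher dose. The labels speak of cultured LLC cells, exposed for 72 h, with lung as the tissue, whereas the study's methods give subcutaneous tumors collected 1 day after the last of several intravenous injections. Markers of host cells were present in every library. Ptprc, the pan-leukocyte gene, lay between 27.0 and 46.0, Pecam1 of endothelium between 15.2 and 25.8, and Col1a1 of fibroblasts between 14.5 and 54.7. Only 4 of the 14 markers of lung epithelium were listed, with a summed level of at most 6.07. In such bulk RNA, fewer cells of a type and less RNA per cell cannot be told apart. The study's methods give young female mice, and how many tumors went into each library is not stated in the sources used here.

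A level here is a deposited value that was taken as FPKM from its form, since the tables name no unit. If it is FPKM it is per length of transcript, and comparisons of level between genes rest on that. It was scaled so that the listed genes of each library sum to 1e+06. Since each group has 1 library, no test of a difference between groups could be run and no error can be given. Every ratio therefore compares 2 libraries and not 2 treatments with replicates. The columns came from 3 tables and were brought to 1 sum because the deposited scale differed between columns. The low dose column summed to 1904030 and the others to 520108 to 586376. The low dose values were 3.26 and 3.41 times those of the same library in its other tables and PAZA 0.987 times, by the median ratio, whereas BMN and the high dose had a median ratio of 1 between tables.

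DNA methyltransferases copy methyl groups onto cytosines of newly made DNA, and azacytidine traps them there. Loss of methylation at a promoter can allow a silenced gene to be transcribed, as is known for germline genes and endogenous retroviruses. PARP enzymes help repair breaks in DNA, and their inhibitors leave PARP bound at the break.

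The rule used every contrast between a PAZA-containing library and a library without it, so the following values describe the set and support nothing. All 69 genes were at least 1.5 times higher in PAZA than in Control, a step that 12.8% of genes took. The corresponding shares of genes were 11.5% for BMN/PAZA low dose over BMN and 7.57% for BMN/PAZA high dose over BMN. For the crossed pairs they were 9.95% for PAZA over BMN, 13.6% for low dose over Control and 9.89% for high dose over Control. The median log2 ratio of the 69 genes, with 1 added to each level, was 1.07 for PAZA over Control, 1.0 for low dose over BMN and 0.92 for high dose over BMN. Over all genes with a level of at least 2 in either library, these medians were -0.11, -0.19 and -0.32. Most of the genes lay close to the threshold. The ratio of the lowest PAZA-containing library to the higher of the others had a median of 1.64, and it was at least 2 for 19 genes and under 2 for 50. Levels were low for many. The lowest PAZA-containing library was under 5 for 27 genes, 5 to 100 for 37 and above 100 for 5. Just inside the ratio threshold stood Ndufb8 at 1.51, Ankrd16 at 1.51 and Timm23 at 1.51, and just outside it H1f3 at 1.49, Mus81 at 1.49 and Slc38a7 at 1.497. At the floor, Haghl at 2.004, Kcnk2 at 2.05 and Dnlz at 2.18 were kept, and Scand1 at 1.99, Zfp72 at 1.93 and Esrra at 1.88 were not.

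**Figure D1:**
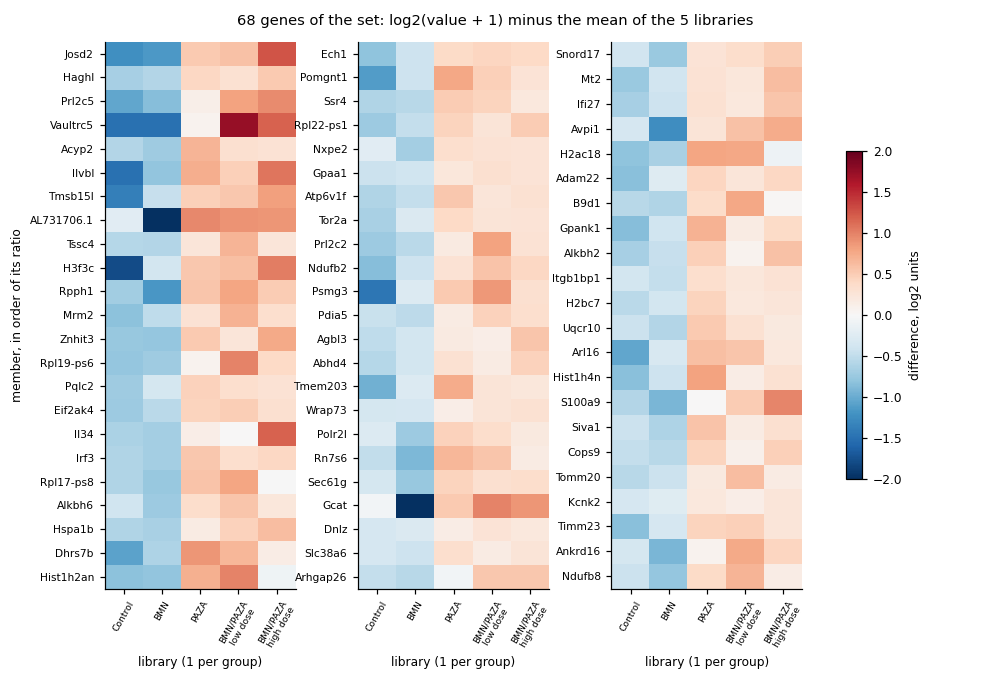
Each row is 1 of 68 genes of the set in order of its ratio, each column is 1 library, and the colour is log2(level + 1) minus the row's mean over the 5 libraries. The Control and BMN columns are blue or pale throughout, as the rule requires, and the strongest red cell is Vaultrc5 in BMN/PAZA low dose.

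The rule did not fix the order of the 3 PAZA-containing libraries. The highest level was in PAZA for 24 genes, in the low dose for 22 and in the high dose for 23. The ratio of the highest to the lowest of the 3 had a median of 1.36, was under 1.5 for 48 genes and was over 2 for 6. The low dose was at least 1.5 times the high dose for 6 genes, beside 15.8% of all genes, and the high dose was at least 1.5 times the low dose for 4, beside 7.83%. The median log2 ratio of low over high dose was 0.0096 for the 69 genes and 0.14 for all genes. Against PAZA, the low dose was at least 1.5 times higher for 6 genes (11.8% of all genes) and lower for 3 (9.97%). For the high dose these counts were 7 (8.95%) and 5 (15.3%). The set thus held genes of similar level with and without BMN673 in the polymer, which the rule favours because it reads the lowest of the 3. Between the libraries without PAZA, BMN was above Control for 40 genes and below it for 28. BMN was at least 1.5 times Control for 5 genes, beside 15.8% of all genes, and Control was at least 1.5 times BMN for 4, beside 8.83%. The median log2 ratio of BMN over Control was 0.05, and 0.093 over all genes.

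By type of transcript, 60 of the 69 genes were protein-coding, 5 were processed pseudogenes, which are reverse-transcribed copies of messenger RNAs, and 4 were small noncoding RNAs. Pseudogenes made up 7.25% of the set and 1.75% of all annotated symbols. Of 244 processed pseudogenes 5 were members, beside 27 of the 870 genes whose longest transcript was under 1000 bases. The rest of the set was sorted by known role after the values had been seen. It held 4 histone genes, 9 genes of mitochondrial proteins, 9 of the endoplasmic reticulum, Golgi and lysosome, 10 of signalling, stress and secreted proteins, 6 of RNA and protein machinery, 2 AlkB genes and 20 others.

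The 4 small noncoding RNAs held the highest level of the set. Rpph1, the RNA component of ribonuclease P, which trims the 5′ end of transfer RNAs, had a level of 898 in Control, 645 in BMN, 2140 in PAZA, 2500 in the low dose and 2070 in the high dose. Snord17, a box C/D small nucleolar RNA that guides methylation of ribosomal RNA, had 592 in Control, 460 in BMN, 929 in PAZA, 988 in the low dose and 1089 in the high dose. The 3 PAZA-containing libraries lay within a narrow range for both. Vaultrc5, a vault RNA, had 32.5 in Control, 32.6 in BMN, 97.6 in PAZA, 314 in the low dose and 212 in the high dose. Its spread among the PAZA-containing libraries, 3.22 times, was the widest of the set. Rn7s6, of the 7S RNAs of the signal recognition particle, had 15.2 in Control, 11.2 in BMN, 35.2 in PAZA, 32.4 in the low dose and 24.5 in the high dose. Rpph1, on chr14:50807449-50807767 of GRCm38 on the minus strand, overlaps an exon annotation of Ccnb1ip1 on the same strand. Its neighbour Parp2, a target of PARP inhibitors, had 41.2 in Control, 18.9 in BMN, 22.9 in PAZA, 12.999 in the low dose and 17.8 in the high dose, and was no member.

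The sequence of Snord17, at chr2:144265979-144266216 on the minus strand of GRCm38, is shown because its class is defined by the C and D boxes. Capitals mark every TGATGA (the C box letters) and every CTGA (the D box letters) on the RNA's strand, as DNA letters.
Snord17: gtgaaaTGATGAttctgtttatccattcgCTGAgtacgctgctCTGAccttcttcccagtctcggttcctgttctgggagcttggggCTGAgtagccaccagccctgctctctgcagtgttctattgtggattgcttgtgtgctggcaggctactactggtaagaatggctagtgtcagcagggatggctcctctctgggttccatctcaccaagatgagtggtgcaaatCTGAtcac

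The other small RNAs were read for context. Of 42 listed, 16 (38.1%) had all 3 PAZA-containing libraries above both others, and 0 had all 3 below. The share above both others was 7.72% of all genes and 23.9% of the 870 genes with a transcript under 1000 bases. All 42 are themselves shorter than 1000 bases. The summed share of these RNAs was 11.7% of the library in Control, 9.46% in BMN, 17.8% in PAZA, 16.6% in the low dose and 15.2% in the high dose. Rn7sk, which holds most of that sum, had 85131 in Control, 66613 in BMN, 113838 in PAZA, 135794 in the low dose and 99816 in the high dose. Its ratio of 1.17 left it outside the set. Rn7s2, another 7S RNA, stood just outside with a ratio of 1.49. At 8 of the 42, at least 1 of the 3 PAZA-containing libraries was listed at 0. RNAs shorter than a sequenced fragment are counted unevenly, and FPKM divides by a short length, so their levels can carry a larger error than those of messenger RNAs. The study calls the data messenger RNA sequencing, and whether polyadenylated RNA was selected is not stated in the sources used here.

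**Figure D2:**
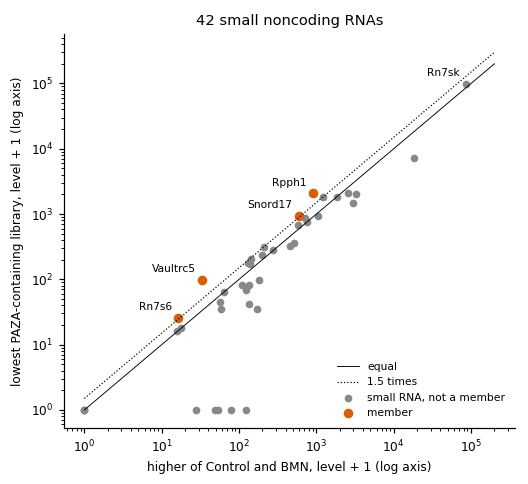
Each point is 1 of 42 small noncoding RNAs, with the higher of Control and BMN on the x axis and the lowest PAZA-containing library on the y axis, both as level + 1 on log axes. The 4 members lie above the dotted line of 1.5 times, and Rn7sk lies just above the line of equal levels.

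Of the 5 pseudogenes, 4 are described here, and most were low beside the genes they were copied from. Rpl22-ps1 had 10.8 in Control, 13.02 in BMN, 25.8 in PAZA, 22.3 in the low dose and 26.8 in the high dose, and was 96.8% identical to Rpl22 over the aligned bases. Rpl19-ps6 had 1.85, 1.97, 4.11, 8.67 and 5.38 in that order, at 98.6% identity to Rpl19. Rpl17-ps8 had 1.13, 0.909, 3.79, 4.57 and 2.21, at 99.7% identity to Rpl17, with only 2 bases different. Rpl17-ps8 and Rpl22-ps1 lie on the X chromosome. H3f3c, a copy of the histone H3.3 gene H3f3a at 99.03% identity, was listed at 0 in Control and had 1.67 in BMN, 4.03 in PAZA, 4.22 in the low dose and 6.04 in the high dose. The values of these 4 are uncertain, because reads could be divided between copy and parent in other ways. None of their parent genes was in the set, but Rpl19, Rpl17 and H3f3a had all 3 PAZA-containing libraries above both others. In the same order of libraries, Rpl19 had 868, 680, 1603, 1537 and 1048, and Rpl17 had 2.95, 2.72, 4.86, 5.56 and 3.33. H3f3a was barely above, with 234.8 in Control and 235.3 in the high dose. Rpl22 was not, with 2111 in Control, 1780 in BMN and 1767 in the high dose. The part of the parent genes in the values of the copies was not tested. Of 81 cytosolic ribosomal protein genes, 45 (55.6%) had all 3 PAZA-containing libraries above both others. This stands beside 7.72% of all genes and 23.9% of the 870 genes with a transcript under 1000 bases. Of the 81 ribosomal protein genes 0 were members, beside 0.494% of all symbols and 27 of those 870 genes. With columns scaled by median ratios, 60 (74.1%) were above both others, beside 15.8% of all genes, and 8 passed the rule, beside 1.31%. As reported, their median ratio was 1.04, and Rps4l had the highest at 1.56, below the floor on the level.

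**Figure D3:**
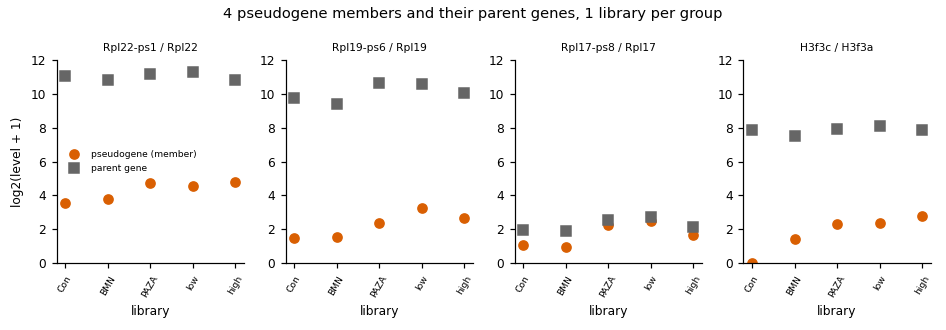
Each of the 4 panels shows 1 pseudogene of the set (circles) and its parent gene (squares) as log2(level + 1) in the 5 libraries. The pseudogenes are lower than their parents in every panel, and by far the least so for Rpl17-ps8.

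The largest ratio with a level above 0 in all libraries was that of Josd2, which encodes a deubiquitinase of the Josephin family. Its level was 0.365 in Control, 0.445 in BMN, 3.6 in PAZA, 3.77 in the low dose and 6.61 in the high dose, a ratio of 8.10. The gene lies at chr7:44467980-44471662 on the plus strand with no exon of another gene over it. Its relative Josd1 was no member, with 10.7, 11.8, 11.3, 10.4 and 10.2. Other genes of RNA and protein machinery had smaller ratios. Tssc4, a factor in assembly of the spliceosome, had 1.102 in Control, 1.06 in BMN, 2.68 in PAZA, 3.96 in the low dose and 2.66 in the high dose. Znhit3, a factor in assembly of box C/D small nucleolar RNPs, had 5.89, 5.80, 15.8, 12.9 and 18.7. These 3 genes had every PAZA-containing library at more than 2 times both others. Polr2l, a subunit shared by the RNA polymerases, Psmg3, a proteasome assembly chaperone, and Cops9 of the COP9 signalosome had ratios of 1.62, 1.64 and 1.52.

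The genes of mitochondrial proteins had ratios from 1.51 to 2.24. The highest was Mrm2, a methyltransferase of mitochondrial ribosomal RNA, with 0.994 in Control, 1.47 in BMN, 3.28 in PAZA, 4.70 in the low dose and 3.40 in the high dose. Tomm20 is a receptor of the outer membrane translocase and had 80.7, 87.7, 136, 181 and 133. Timm23, the channel of the inner membrane translocase, had 23.4, 33.5, 58.1, 59.2 and 50.6. Both belong to the route by which proteins made in the cytosol enter mitochondria. Uqcr10, a subunit of respiratory complex III, had 84.9 in Control, 76.1 in BMN, 165 in PAZA, 142 in the low dose and 131 in the high dose. Ndufb2 and Ndufb8, subunits of complex I, had ratios of 1.65 and 1.51, and Ech1, an enoyl-CoA isomerase of fatty acid oxidation, 1.79. Of the 48 genes whose symbol marks a subunit of complex I or III, 3 were members and 16 (33.3%) had all 3 PAZA-containing libraries above both others. These shares stand beside 0.494% and 7.72% of all genes. Of the 870 genes with a transcript under 1000 bases, 27 were members and 23.9% were above both others. The median log2 ratio of the 48 genes was 0.34 for PAZA over Control, 0.26 for low dose over BMN and 0.015 for high dose over BMN. With columns scaled by median ratios, 6 of the 48 passed the rule and 28 (58.3%) were above both others, beside 1.31% and 15.8% of all genes. As reported, 0 of 15 subunit genes of complex IV and 0 of 17 of complex V were members, and 7 (46.7%) and 6 (35.3%) were above both others. Of 24 genes of the Tim and Tom translocases, 2 were members and 10 (41.7%) were above both others in all 3. These shares stand beside the same 0.494% and 7.72% of all genes, and 27 members and 23.9% of the 870 short genes. These families were chosen after the values were seen. Gcat, which makes glycine from aminoketobutyrate, was listed at 0 in BMN, but its symbol stood on several rows and the rows differed between tables, so its values are uncertain.

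Among genes of the secretory route, Sec61g, a subunit of the translocon of the endoplasmic reticulum, had 125 in Control, 93.9 in BMN, 218 in PAZA, 201 in the low dose and 205 in the high dose. Ssr4, a subunit of the translocon-associated protein complex, had 51.0, 52.4, 111, 106 and 90.7. Ilvbl, an acetolactate synthase-like enzyme, had 1.17 in Control, 2.53 in BMN, 9.12 in PAZA, 7.52 in the low dose and 11.9 in the high dose. Both translocon genes thus varied little among the 3 PAZA-containing libraries, and Ilvbl stood out by ratio, at 2.98. Pqlc2, a lysosomal exporter of basic amino acids, and Atp6v1f, a subunit of the vacuolar proton pump, had ratios of 2.04 and 1.67. Pomgnt1, a glycosyltransferase, Gpaa1, of the GPI transamidase, Pdia5, a disulfide isomerase, and Tor2a, of the torsin family, had ratios of 1.749, 1.70, 1.64 and 1.66. The other Sec61 genes were no members. Sec61b had 56.6, 39.4, 108, 98.0 and 68.7, above both others in all 3, with a ratio of 1.21.

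Of the signalling and stress genes, Il34, a ligand of the CSF1 receptor of macrophages, had 1.15 in Control, 1.08 in BMN, 2.65 in PAZA, 2.33 in the low dose and 6.54 in the high dose. All 3 PAZA-containing libraries were above both others, and the high dose was the highest. Eif2ak4, the GCN2 kinase that senses uncharged transfer RNA, had 3.40, 3.98, 8.87, 9.20 and 8.07, whereas the related kinase gene Eif2ak1 had 19.95, 25.1, 15.4, 12.3 and 10.7. Hspa1b, an inducible HSP70 gene that shares 99.1% of its aligned bases with Hspa1a and is uncertain for that reason, had 3.64, 3.48, 6.91, 8.72 and 9.84. Mt2, a metallothionein, had 12.99, 17.0, 27.6, 26.7 and 35.1, whereas its relative Mt1 had 71.2, 68.03, 103, 70.3 and 52.1 and was no member. Siva1, a gene of apoptosis, had a ratio of 1.52. Prl2c2 and Prl2c5, both on chromosome 13 with 177332 bases between them, encode proteins of the prolactin family. Prl2c5 had 0.634 in Control, 0.874 in BMN, 2.66 in PAZA, 4.90 in the low dose and 5.51 in the high dose. Prl2c2 had 20.7, 23.8, 39.5, 61.9 and 42.6. The copies are 96.6% identical, so their values are uncertain, and Prl2c3, 96.4% identical to Prl2c5, had 143, 129, 178, 257 and 140 and was no member.

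Irf3, the transcription factor of the cytosolic DNA and RNA sensing route, had 8.82 in Control, 8.35 in BMN, 20.7 in PAZA, 17.8 in the low dose and 18.8 in the high dose, a ratio of 2.02. Its values depended on the table. Most genes of a library present in several tables keep 1 constant between them, and 383 of 13979 symbols (2.74%) lay more than 0.5% from it for some library. Irf3 was one of 4 such members (5.80%), together with Ifi27, Gcat and Arhgap26. Scaled in the same way, Irf3 had 30.6 for the low dose in the table with BMN and 21.4 in the table with PAZA, and 17.1 for PAZA in that table. Ifi27, an interferon-inducible gene, had 19.4 in Control, 23.3 in BMN, 38.7 in PAZA, 36.5 in the low dose and 46.4 in the high dose, and 71.8 and 59.98 for the low dose and 35 for PAZA in the other tables. Both stayed past the threshold with each of these values, but the size of their difference cannot be stated from these tables. Of 26 listed genes of cytosolic nucleic acid sensing, 19 lay off a constant, as did 30 of 51 interferon-stimulated genes. Irf3 was a member from the first list. The second list, which leaves out Ifi27, had 0, and with 0.494% of all symbols kept neither count is a result about the lists. Exons of Irf3 overlap those of Bcl2l12 on the opposite strand, and whether the counting used strand is not given in the sources used here.

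S100a9, a calcium-binding protein of neutrophils, had 30.8 in Control, 24.4 in BMN, 47.0 in PAZA, 66.8 in the low dose and 93.2 in the high dose. S100a8, its partner, had 35.8, 31.5, 67.8, 48.7 and 132 and missed the threshold with a ratio of 1.36. Of 12 listed neutrophil markers of 18, 3 (25%) had all PAZA-containing libraries above both others, beside 7.72% of all genes, and the third was Retnlg, listed at 0 in Control and BMN. The receptor genes Cxcr2 and Csf3r did not, with Cxcr2 at 3.42, 4.995, 3.08, 2.45 and 4.55. The summed level of the 12 markers was 103 in Control, 103 in BMN, 163 in PAZA, 156 in the low dose and 264 in the high dose. Most of it was S100a8 and S100a9, and the other 10 markers summed to 36.8, 47.04, 48.5, 40.6 and 39.1. The part of neutrophil content in the S100a9 values was not tested.

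**Figure D4:**
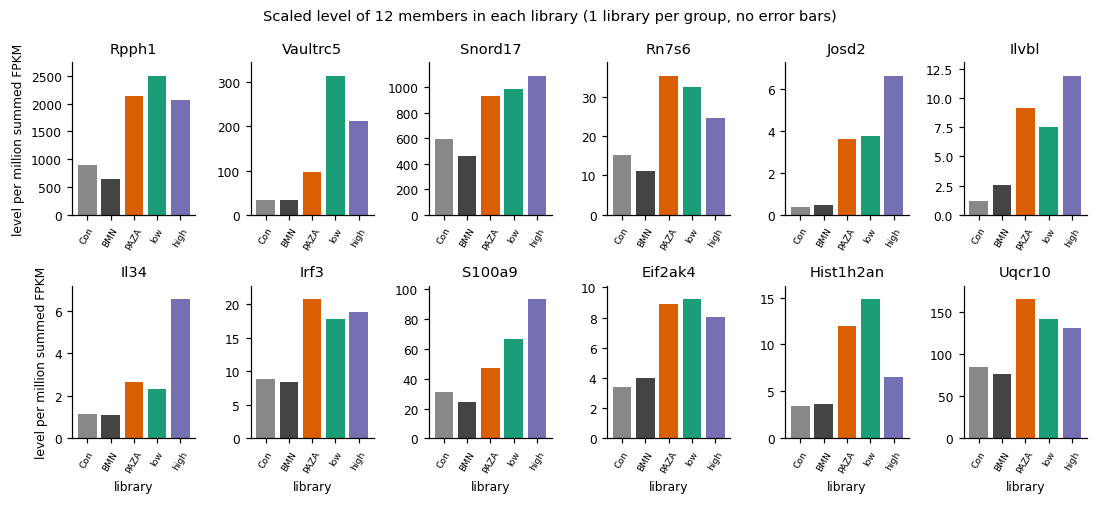
Bars give the scaled level of 12 genes of the set in the 5 libraries, on linear axes from 0, with 1 library per bar. Il34 and S100a9 are highest in BMN/PAZA high dose, and Vaultrc5 and Hist1h2an in BMN/PAZA low dose.

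The 4 histone genes encode core histones that are made during DNA replication, and their messenger RNAs normally end in a stem-loop and not in a poly(A) tail. Hist1h2an had 3.49 in Control, 3.61 in BMN, 11.9 in PAZA, 14.8 in the low dose and 6.50 in the high dose. H2ac18 had 4.09, 4.64, 14.4, 14.1 and 7.23. Hist1h4n had 4.97, 7.002, 17.7, 10.8 and 12.2, and H2bc7 had 7.97, 9.07, 16.7, 14.1 and 14.3. Each was highest in PAZA or in the low dose. Histone genes of 1 type are near-identical copies, so these values are uncertain. Of 64 listed replication-dependent histone genes, found by their GENCODE symbols and with H1 linker histones among them, 4 were members. Of the 64, 16 (25%) had all 3 PAZA-containing libraries above both others. Of all genes these shares were 0.494% and 7.72%. Of the 870 genes with a transcript under 1000 bases, 27 were members and 23.9% were above both others. The median log2 ratio of the 64 genes was 0.65 for PAZA over Control, 0.18 for low dose over BMN and -0.034 for high dose over BMN. For genes with a transcript under 1000 bases these medians were 0.28, 0.27 and 0.088, and for all genes with a level of at least 2 in every library -0.11, -0.19 and -0.32. The histone genes thus lay above all genes in the 3 contrasts and below the short genes in the contrasts with BMN. With columns scaled by median ratios, 9 of the 64 passed the rule, beside 1.31% of all symbols, and 31 (48.4%) were above both others, beside 15.8%. H1f3, at 6.11, 7.30, 11.1, 10.9 and 11.3, stood just outside the set.

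The AlkB dioxygenases of the set were Alkbh6 and Alkbh2, the latter of which removes alkyl groups from DNA bases. Alkbh6 had 1.36 in Control, 0.879 in BMN, 2.96 in PAZA, 3.58 in the low dose and 2.62 in the high dose. Alkbh2 had 3.09, 3.74, 8.07, 5.80 and 8.78. Of 8 listed AlkB genes, 2 were members and 4 (50%) had all 3 PAZA-containing libraries above both others, beside 0.494% and 7.72% of all genes, and the family was chosen after its values were seen. Alkbh1, Alkbh3, Alkbh4, Alkbh5, Alkbh7 and Alkbh8 were no members. Of these, Alkbh4, at 0.946, 1.68, 2.35, 2.31 and 2.23, and Alkbh7, at 1.02, 0.553, 1.73, 1.74 and 1.36, had all 3 PAZA-containing libraries above both others, with ratios of 1.32 and 1.33. Alkbh5, at 35.2, 29.0, 22.2, 27.6 and 24.7, and Alkbh8, at 22.2, 22.5, 18.03, 19.03 and 16.2, had all 3 below both others.

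The 20 other genes shared no stated role and had ratios from 1.51 to 3.29. Haghl, related to the glyoxalase hydroxyacylglutathione hydrolase, had 0.529 in Control, 0.608 in BMN, 2.22 in PAZA, 2.004 in the low dose and 2.49 in the high dose. Acyp2, an acylphosphatase, had 0.734, 0.595, 3.18, 2.24 and 2.19. Tmsb15l, a thymosin gene whose exons overlap those of Tmsb15b1 and Tmsb15b2 on the same strand, was listed at 0 in Control and had 0.871, 2.57, 2.72 and 3.54 in the other libraries. These 3 stood near the floor. Tmsb15b2 had 10.8 in Control, 17.0 in BMN, 12.2 in PAZA, 0.648 in the low dose and was listed at 0 in the high dose, so the locus is uncertain. AL731706.1, whose exons overlap those of Mkks, had 3.88 in Control, was listed at 0 in BMN and had 10.1, 9.66 and 9.58 in the PAZA-containing libraries. Dhrs7b, a short-chain dehydrogenase, had 2.93, 4.35, 14.2, 12.05 and 8.11. The remaining 15 were Nxpe2, Agbl3, Abhd4, Tmem203, Wrap73, Slc38a6, Arhgap26, Avpi1, Adam22, B9d1, Gpank1, Itgb1bp1, Arl16, Kcnk2 and Ankrd16, with ratios from 1.51 to 1.71. In all, 29 of the 69 genes (42.03%) had an exon that overlaps an exon of another gene, beside 35.7% of all annotated symbols.

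Short transcripts were frequent in the set, a feature that the rule did not use. The longest annotated transcript had a median of 1518 bases for the 69 genes and 3367 for all symbols. It was under 1000 bases for 39.1% of the set and 6.24% of all, and at least 4000 bases for 8.70% and 37.8%. The 325 genes of the rule turned around had a median of 4944. The difference was present in protein-coding genes alone, with medians of 1793 and 3451. Length moved with the ratios of genes outside the set as well. Among 9823 protein-coding genes with a mean level of at least 2, which include 53 members, the median log2 ratio of PAZA over Control in nonmembers went from 0.29 for transcripts of up to 500 bases to -0.44 for those above 8000. For low dose over BMN it went from 0.41 to -0.39 and for high dose over BMN from 0.10 to -0.46. For BMN over Control, over all genes of a class, it was 0.020 and 0.11. Members were 5.88% of the shortest class and 0.178% of the longest. The part of length in the choice of the set was not tested. After each level had been centred on genes of similar length, the rule kept 121 genes, of which 50 were among the 69. The 19 that were lost were Acyp2, Alkbh2, Atp6v1f, Avpi1, B9d1, Cops9, H2ac18, H2bc7, Haghl, Hist1h4n, Ifi27, Mt2, Prl2c2, Rpl22-ps1, S100a9, Siva1, Snord17, Tmem203 and Uqcr10. Of these, Acyp2 and Haghl were lost by the floor of 2 alone, at 1.87 and 1.96, with ratios of 2.12 and 3.52. The 19 include 3 of the 4 histone genes and 1 of the 2 AlkB genes.

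**Figure D5:**
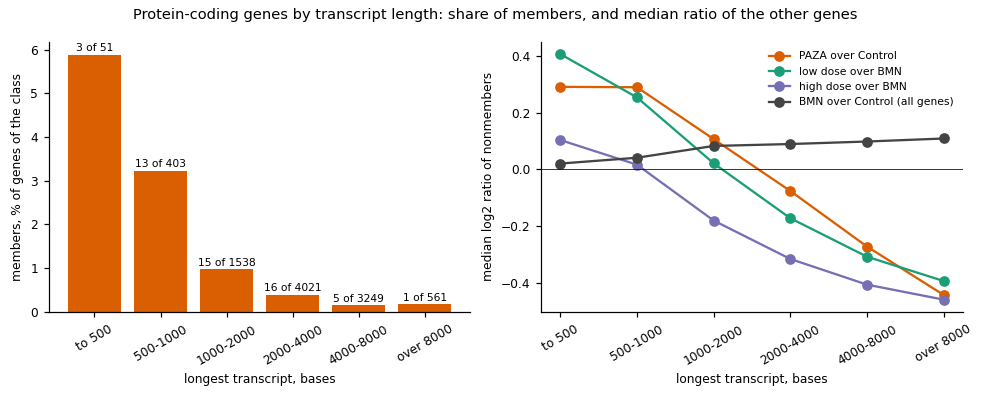
Protein-coding genes with a mean level of at least 2 are grouped by the length of their longest transcript. The left panel gives members as a percent of each class, from 5.88% to 0.178%, and the right panel gives median log2 ratios of nonmembers (of all genes for BMN over Control), which fall with length in the 3 contrasts with PAZA.

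Since azacytidine traps the enzymes that methylate cytosines of DNA, the promoters were read for their CpG content. The table of RefSeq promoters (GRCm38.p6, 250 bases before to 50 after the start) held 54 of the 69 genes and 10851 of all symbols. CpG-poor promoters, with an observed-to-expected CpG ratio under 0.6, were 15 of the 54 (27.8%). The share was 32.3% of all symbols and 23.2% of those with a level of at least 2 in all 3 PAZA-containing libraries. The median ratio was 0.764 in the set, 0.743 in all and 0.794 in the latter. The order of the shares depended on the limit. Under 0.5 they were 12.96% for the set, 24.8% for all and 16.3% for the latter, and under 0.75 they were 46.3%, 51.2% and 42.6%. The ratio spanned a wide range, from 0.101 for S100a9 to 1.31 for H2ac18. The 250 bases before the start of 4 genes are shown with each CG in capitals, as the largest ratio in the set (Josd2), a CpG-rich promoter of a gene with a high ratio (Ilvbl) and the promoters with the lowest CpG ratios (Prl2c5 and S100a9). They lie at chr7:44467730-44467979 on the plus strand for Josd2, chr10:78574250-78574499 on the plus strand for Ilvbl, chr13:13182466-13182715 on the plus strand for Prl2c5 and chr3:90695722-90695971 on the minus strand for S100a9. They hold 10, 23, 2 and 2 CG.
Josd2: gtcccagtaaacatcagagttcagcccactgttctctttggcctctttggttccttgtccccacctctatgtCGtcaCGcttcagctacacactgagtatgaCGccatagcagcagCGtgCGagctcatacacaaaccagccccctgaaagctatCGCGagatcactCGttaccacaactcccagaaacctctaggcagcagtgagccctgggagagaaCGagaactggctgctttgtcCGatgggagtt
Ilvbl: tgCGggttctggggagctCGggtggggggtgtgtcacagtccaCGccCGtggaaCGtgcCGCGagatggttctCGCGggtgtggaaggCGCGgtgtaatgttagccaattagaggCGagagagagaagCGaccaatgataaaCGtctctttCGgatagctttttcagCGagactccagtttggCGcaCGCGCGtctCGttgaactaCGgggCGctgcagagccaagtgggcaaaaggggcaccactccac
Prl2c5: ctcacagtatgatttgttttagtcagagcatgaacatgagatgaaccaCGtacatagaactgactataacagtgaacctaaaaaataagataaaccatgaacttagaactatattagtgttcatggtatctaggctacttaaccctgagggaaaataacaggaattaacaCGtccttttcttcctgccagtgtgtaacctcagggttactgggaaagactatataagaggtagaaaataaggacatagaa
S100a9: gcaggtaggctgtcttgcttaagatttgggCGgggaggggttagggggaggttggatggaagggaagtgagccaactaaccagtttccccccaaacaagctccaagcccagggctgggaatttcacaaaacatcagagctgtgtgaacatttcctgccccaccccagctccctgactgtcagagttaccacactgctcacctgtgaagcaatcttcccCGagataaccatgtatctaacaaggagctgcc

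Of the motifs searched on both strands in the 300 bases, TATAAA was in 9.26% of the set's promoters and 8.09% of all, TGACGTCA in 5.56% and 3.16%, TGANTCA in 5.56% and 5.40%, the interferon response element (ISRE) in 1.85% and 3.27%, and CACGTG in 5.56% and 9.77%. With 54 promoters, each of these shares rests on 5 genes or fewer.

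The set held 0 of the 17 listed genes for writing, reading or erasing methyl marks on DNA and 0 of 25 listed germline genes, and since the rule kept 0.494% of all symbols nothing can be read from these counts. Dnmt1, the maintenance methyltransferase that azacytidine traps, had 155 in Control, 150 in BMN, 97.5 in PAZA, 78.8 in the low dose and 52.7 in the high dose. The de novo enzyme gene Dnmt3a had 9.18, 12.3, 9.69, 7.07 and 9.96, and Dnmt3b was at or under 0.223 in every library. Uhrf1, which brings Dnmt1 to newly made DNA, had 81.2, 97.5, 88.3, 71.0 and 75.2. Of the 17 genes, 10 (58.8%) had all 3 PAZA-containing libraries below both others, beside 26.5% of all genes. With columns scaled by median ratios these were 8 (47.1%) and 15.6%. Besides Dnmt1 the 10 included the methyl-CpG readers Mbd1, Mbd2, Mbd3 and Mbd4, the oxidases Tet2 and Tet3, and Zbtb33. Mbd1 had 14.4, 18.1, 7.71, 6.44 and 8.81. Gadd45b had 11.8, 11.97, 21.7, 20.3 and 13.4, above both others in all 3 with a ratio of 1.12. In all, 4 of the 69 genes were in any of 39 lists of pathways and cell types, which cover 937 listed symbols. These were Irf3, S100a9, Hspa1b of 21 chaperone genes and Il34 of 36 genes of interleukins and inflammation. The lists of DNA repair (64 genes), p53 targets (30) and G2 and mitosis (26) held 0, which at 0.494% of all symbols is likewise no result about them.

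BMN/PAZA low dose and PAZA are also in tables that the rule did not read. These hold the same libraries and are no replicates. In the table of BMN and BMN/PAZA low dose, 66 of the 69 genes were at least 1.5 times higher in the low dose and at least 2, beside 11.7% of all genes. Haghl missed the floor there with 1.97. Gcat was listed at 0 in BMN and near 0 in the low dose, and Kcnk2 had 2.02 beside 1.36.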

How the data were processed

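RNA sequencing libraries of 5 groups, 1 each, were read from 5 deposited tables of 2 groups. Per the labels' processing notes the authors used GRCm38, HISAT2 and StringTie, whose versions are not given in the sources used here. The deposited values name no unit and were taken as FPKM from their form, so depth is unknown and no counting error could be given. Control and PAZA were read from their own table, BMN and BMN/PAZA high dose from theirs, and BMN/PAZA low dose from its table with the high dose. For a repeated symbol the row with the highest mean was used. Columns were scaled to sum to 1e+06 over 13979 shared symbols. The rule and its floor are given with the results, and 1 was added to levels before log2 ratios. With 1 library in each group, tests between groups were not possible. The members, the 39 gene lists and the groupings were chosen with earlier results of these data known. Named genes were the 25 with the largest ratio, the 10 with the highest lowest PAZA-containing level, members in a list, the 3 on each side of the threshold and the DNA methylation genes. Others were named after their values were seen. Transcripts and overlaps came from GENCODE for GRCm38 (13946 symbols matched, 69 of 69 members) and promoters from RefSeq. Results for 1 member and 1 other gene are not reported here. The rule was tested on simulated data, which were copies of the Control column with little noise and planted differences. Such data cannot show how often the rule errs in these libraries. Tools were pandas 2.3.3 and numpy 2.4.6 under Python 3.11.15, with Biopython 1.88 for alignments and matplotlib 3.10.9 for plots.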

Additional observations from a re-analysis of the deposited data

How the results depend on the processing

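No paired analysis was possible because each group has 1 library. No library was left out, since that would have removed a whole group. The number of genes kept was 69 as reported, 183 with columns scaled by median ratios, 19 with a fold of 2, 284 with a fold of 1.2, 198 with no floor on the level, 42 with a floor of 5 and 121 after centring on transcript length, which was chosen after seeing the data. The number of these that stand in a gene list, 4 as reported, was 11, 2, 17 and 13 with median ratios, a fold of 2, a fold of 1.2 and no floor, and 12 after centring on length. With 1 added before the ratio, 46 genes were kept, all among the 69, and Ndufb8 and Timm23 were among those lost. The count lay between 64 and 69 with rows of a symbol summed, with the low dose or the low dose and PAZA read from other tables, without symbols that differ between tables and without repeated symbols (the last also chosen after seeing the data). All 69 genes were kept under median ratios, a fold of 1.2 and no floor. CpG-poor promoters were 7 with a ratio under 0.5 and 25 with a ratio under 0.75, beside 15 as reported. Over the settings, the median log2 ratio of low over high dose lay between -0.077 and 0.089 and that of BMN over Control between -0.0014 and 0.061, so the sign of neither was fixed. Depth is unknown, so the error of low levels could not be given.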
